A study of Mus musculus with 6 samples.

Results

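The receptors for interleukin-3 (IL-3), interleukin-5 (IL-5) and GM-CSF share a signalling subunit, the common beta chain. The 8 genes described here are Csf2rb, which encodes that chain, Csf2rb2, which encodes a close paralog of it, the alpha chain genes Il3ra, Il5ra and Csf2ra, and the cytokine genes Il3, Il5 and Csf2. They are 8 of 19937 genes measured, and all 8 were found, each with 1 probe set. The genes were chosen by family membership with measured values of this same comparison already known, so their differences between the groups are given as a description, with no test. Gene expression was read on Affymetrix Mouse Gene ST arrays from 6 cultures of mouse CD4+ T cells of the B6 strain. In 2 cultures the cells were restimulated with anti-CD3 and anti-ICOS together, and in 4 cultures with anti-CD3 alone. ICOS is a costimulatory receptor of the CD28 family. All cultures started as naive splenic cells, were primed through CD3 and CD28 over 2 days, rested overnight, and were then coated with antibody during 20 min and cross-linked with a goat antibody to hamster immunoglobulin over 8 h. Both groups therefore carry the priming and the anti-CD3 signal, and antibody cross-linking stands in for the natural ICOS ligand. Resting cells and cells given anti-ICOS alone were not analysed here.

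Each receptor of this family pairs an alpha chain, which recognises 1 cytokine, with a beta chain, which carries the kinase JAK2 and signals through STAT5, the RAS pathway and phosphatidylinositol 3-kinase. Mice, unlike humans, have a second beta chain, the product of Csf2rb2, which works with the IL-3 alpha chain only. The ligands are made by activated helper T cells, among other cells, while the receptors are best known from myeloid cells: GM-CSF acts on granulocytes, macrophages and dendritic cells, IL-3 on basophils, mast cells and their progenitors, and IL-5 on eosinophils and B-1 cells.

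The 6 arrays had median probe set intensities between 109 and 114, and the median gene read 7.20 to 7.25 on the log2(intensity + 16) scale used throughout. Cd3e and Cd4, which define the labelled cell type, averaged 12.41 ± 0.024 and 11.97 ± 0.036 (SD, n = 2) with anti-ICOS, and 12.68 ± 0.16 and 12.31 ± 0.18 (SD, n = 4) with anti-CD3. Anti-CD3 replicate 4 stood apart from its group, and for Cd3e and Cd4 it read 12.45 and 12.05, below replicates 1 to 3. Across genes it correlated at Pearson r = 0.996 with both anti-ICOS arrays and at 0.986, 0.987 and 0.982 with anti-CD3 replicates 1 to 3, where genes are not independent replicates. Its value is therefore given apart from the other anti-CD3 arrays for every gene of the family and for many of the others. No batch is named in the labels. Replicates are labelled as biological, without more on their origin, and every p-value here reflects only how far these arrays spread.

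The sequences next to the start sites of 3 of these genes show what the loci hold. Csf2rb2 and Il5ra are receptor genes whose signal differed between the groups, and Il3 is a ligand gene whose signal did not separate them. Each is the 250 bases before the RefSeq transcription start, 5′ to 3′ on the gene's strand, on mouse build GRCm38.p6. Capitals mark matches, on either strand, to 6 short motifs.
Csf2rb2, chr15:78305722-78305971, minus strand: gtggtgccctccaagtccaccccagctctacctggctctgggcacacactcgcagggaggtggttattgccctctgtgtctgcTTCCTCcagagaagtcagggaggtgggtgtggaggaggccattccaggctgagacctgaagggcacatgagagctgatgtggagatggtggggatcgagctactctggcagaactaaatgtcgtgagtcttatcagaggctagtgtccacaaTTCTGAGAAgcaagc
Il5ra, chr6:106749038-106749287, minus strand: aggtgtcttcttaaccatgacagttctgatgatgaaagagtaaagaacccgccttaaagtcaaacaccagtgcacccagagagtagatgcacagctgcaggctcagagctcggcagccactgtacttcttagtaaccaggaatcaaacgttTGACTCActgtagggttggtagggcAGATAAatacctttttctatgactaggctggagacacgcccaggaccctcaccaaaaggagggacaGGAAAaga
Il3, chr11:54267280-54267529, minus strand: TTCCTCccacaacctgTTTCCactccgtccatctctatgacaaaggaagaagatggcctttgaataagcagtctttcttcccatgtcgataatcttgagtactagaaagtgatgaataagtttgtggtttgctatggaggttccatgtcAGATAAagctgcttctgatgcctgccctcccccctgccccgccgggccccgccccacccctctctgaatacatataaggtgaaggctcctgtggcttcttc
The motifs were the STAT site TTCNNNGAA, the AP-1 site TGANTCA, the NFAT core GGAAA, the GATA site AGATAA, the ETS site CGGAAG and the PU.1 site GAGGAA. In the Csf2rb2 window the STAT letters lay 15 to 7 bases before the start and the PU.1 letters 167 to 162 bases before it. STAT factors are the family that the beta chain itself activates, and PU.1 is a factor of myeloid and B cells. The STAT letters were found in 7.02% and the PU.1 letters in 23.3% of all 32851 promoters of the same length. The Il5ra window held the AP-1 letters 99 to 93, the GATA letters 74 to 69 and the NFAT core 8 to 4 bases before the start, letters held by 6.75%, 9.99% and 55.6% of all promoters. The Il3 window held the NFAT core, the GATA letters and the PU.1 letters once each, at 234 to 230, 101 to 96 and 250 to 245 bases before the start. Of the other windows, those of Csf2 and Il5 each held 2 NFAT cores, Csf2 with 1 GATA match and Il5 with 1 PU.1 match that overlaps an NFAT core. The window of Csf2ra held 1 NFAT core and 2 PU.1 matches, and that of Il3ra held none of the 6. Unlike the other windows, these 2 did not end next to the start of the gene in RefSeq, so they may miss the sequence beside it. Csf2rb had no window. The ETS letters, present in 13.6% of all promoters, were in none of the 7 windows. A match is a stretch of letters, not a measured binding site.

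Both beta chain genes were much higher with anti-ICOS than with anti-CD3 alone, Il5ra was about 2-fold higher on average, and the other 2 alpha chains and all 3 cytokines lay at nearly the same level in the 2 groups. Csf2rb2, the IL-3-specific beta chain, read 9.51 and 9.43 in the anti-ICOS cultures, and 7.14, 6.95, 6.79 and, in replicate 4, 7.32 in the anti-CD3 cultures. The groups did not overlap, and replicate 4 was the highest anti-CD3 array but far below both anti-ICOS arrays. The means were 9.47 ± 0.060 (SD, n = 2) with anti-ICOS and 7.05 ± 0.23 (SD, n = 4) with anti-CD3, a difference of 2.42 ± 0.15 (SE), or 5.36-fold. In the deposited units these were intensities of 715 and 673 with anti-ICOS against 125, 107, 94.4 and 144 with anti-CD3. By size of difference Csf2rb2 stood at place 3 among the 19937 genes, which is a description of how it came to be chosen.

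Csf2rb, the beta chain common to the receptors for IL-3, IL-5 and GM-CSF, read 9.85 and 10.12 with anti-ICOS, and 7.64, 7.75, 7.78 and, in replicate 4, 8.40 with anti-CD3. Here too both anti-ICOS arrays lay above every anti-CD3 array, and replicate 4 lay between the 2 sets. The means were 9.99 ± 0.20 (SD, n = 2) and 7.89 ± 0.34 (SD, n = 4), and the difference was 2.09 ± 0.21 (SE), or 4.26-fold, at place 4 of all genes. The intensities behind it were 905 and 1100 with anti-ICOS and 184, 199, 204 and 322 with anti-CD3. The 2 genes lie next to each other on chromosome 15 and are close paralogs, so each probe set may also read transcripts of the other gene. The data cannot tell how much of either signal is shared. The values of the pair moved closely but not in step: anti-CD3 replicate 4 lay 0.36 above the mean of replicates 1 to 3 for Csf2rb2 and 0.68 above it for Csf2rb.

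**Figure D1:**
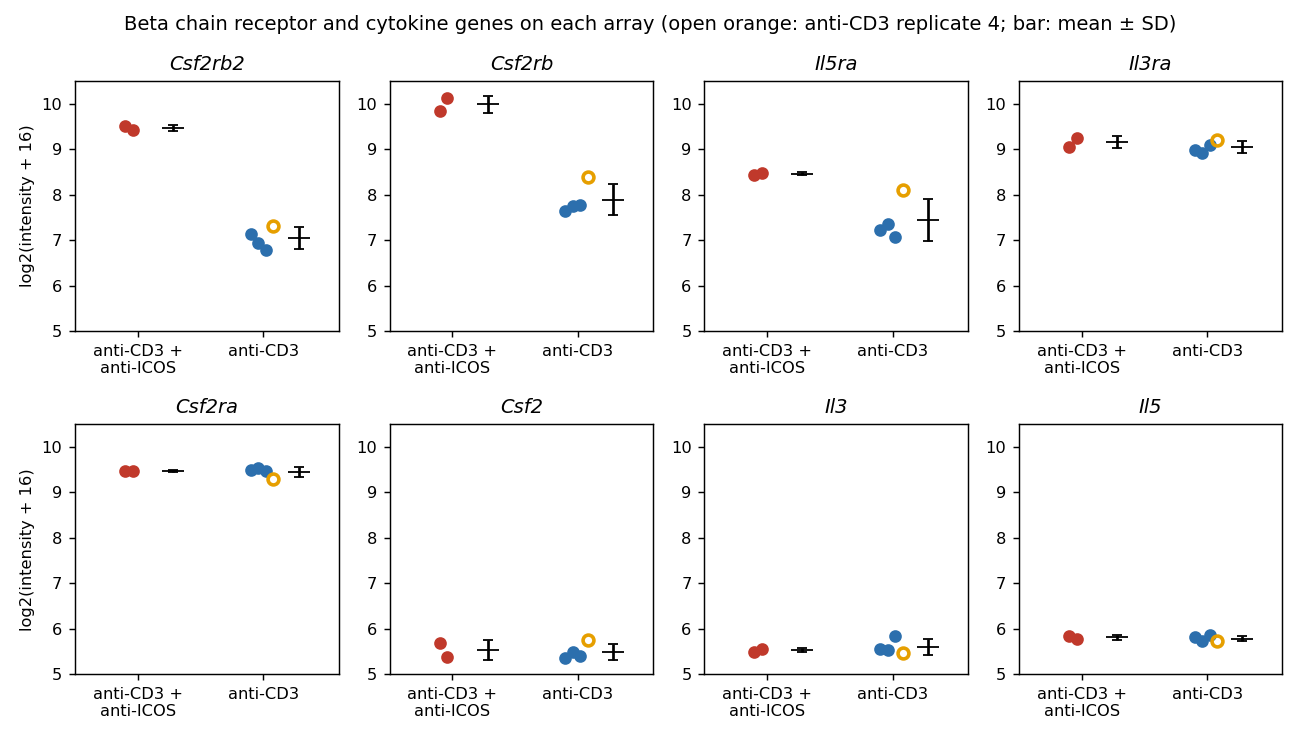
Level of each of the 8 genes on each array as log2(intensity + 16), with anti-CD3 plus anti-ICOS (red) left of anti-CD3 (blue, replicate 4 as an open orange ring) and the mean ± SD of each group beside its points. Both anti-ICOS arrays lie above all anti-CD3 arrays for Csf2rb2, Csf2rb and Il5ra, and among the anti-CD3 range or next to it for the other 5 genes.

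Il5ra, the alpha chain that binds IL-5, read 8.44 and 8.48 with anti-ICOS, and 7.23, 7.37, 7.08 and, in replicate 4, 8.11 with anti-CD3. The groups did not overlap, but replicate 4 lay much nearer to the anti-ICOS arrays than to the rest of its own group. The means were 8.46 ± 0.033 (SD, n = 2) and 7.45 ± 0.46 (SD, n = 4), and the difference was 1.01 ± 0.27 (SE), or 2.02-fold. Intensities were 331 and 342 with anti-ICOS and 134, 149, 119 and 260 with anti-CD3.

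Il3ra, the alpha chain that binds IL-3, read 9.06 and 9.25 with anti-ICOS and 8.98, 8.92, 9.10 and, in replicate 4, 9.20 with anti-CD3. The groups overlapped, and the difference of 0.10 ± 0.10 (SE) was about the size of its error. Csf2ra, the alpha chain that binds GM-CSF, read 9.48 and 9.46 with anti-ICOS and 9.49, 9.53, 9.48 and, in replicate 4, 9.30 with anti-CD3. Its difference was 0.023 ± 0.084 (SE), and over the 6 arrays its range of 0.23 was the narrowest among the 5 receptor genes. Of the 3 alpha chains, then, the one for IL-5 separated the groups and those for IL-3 and GM-CSF overlapped between them.

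The ligand genes showed no separation. Csf2, which encodes GM-CSF, read 5.69 and 5.38 with anti-ICOS and 5.35, 5.48, 5.39 and, in replicate 4, 5.75 with anti-CD3, a difference of 0.040 ± 0.14 (SE). Il3 read 5.50 and 5.56 with anti-ICOS and 5.55, 5.55, 5.84 and, in replicate 4, 5.46 with anti-CD3, a difference of -0.074 ± 0.11 (SE). Il5 read 5.85 and 5.77 with anti-ICOS and 5.82, 5.74, 5.86 and, in replicate 4, 5.74 with anti-CD3, a difference of 0.024 ± 0.073 (SE). In deposited units the 3 genes read 25.8 to 41.8 with anti-ICOS and 24.9 to 42.0 with anti-CD3. All 3 belonged to the dimmest 40% of genes, where the added 16 makes a fold change smaller, so a modest change of a dim transcript would be hard to see. No detection call was used, and the arrays therefore do not say whether these transcripts were present.

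Set against replicate 4 alone, the beta chains kept most of their difference and Il5ra lost most of it. With replicates 1 to 3 as the reference, the differences were 2.51 ± 0.10 for Csf2rb2, 2.26 ± 0.094 for Csf2rb and 1.24 ± 0.090 for Il5ra (SE). With replicate 4 as the only reference they were 2.15 ± 0.14, 1.58 ± 0.13 and 0.35 ± 0.12 (SE), where the error comes from the spread within the other arrays. Replicate 4 had thus already covered 14.4% of the way between replicates 1 to 3 and the anti-ICOS mean for Csf2rb2, 29.9% for Csf2rb and 71.6% for Il5ra. For 4 of the other 5 genes the sign depended on the choice: Il3ra differed by 0.16 against replicates 1 to 3 and by -0.047 against replicate 4, Csf2ra by -0.026 and 0.17, Csf2 by 0.12 and -0.21, and Il3 by -0.12 and 0.065. Il5 kept its sign, at 0.0070 and 0.076.

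**Figure D2:**
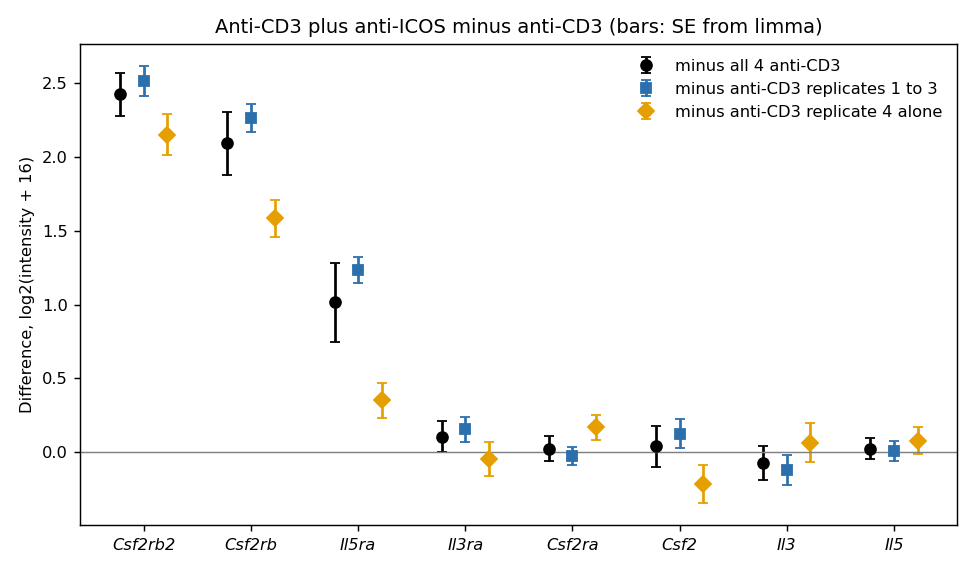
Difference of each gene on the log2(intensity + 16) scale, anti-CD3 plus anti-ICOS minus all 4 anti-CD3 arrays (black), minus replicates 1 to 3 (blue) and minus replicate 4 alone (orange), with bars for the SE from limma. Csf2rb2 and Csf2rb stay above 1.5 with every reference, Il5ra drops to 0.35 against replicate 4, and the other 5 genes lie within 0.22 of 0.

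Read against all genes, the counts for the family were these. In the limma fit on all 6 arrays, Csf2rb and Csf2rb2, 2 of the 8 genes, were past a Benjamini-Hochberg adjusted p of 0.05, where 54 genes or 0.271% of all genes were past it as higher. No gene, 0%, was past it as lower in limma, while 1109 of the 19937 genes were lower and 1245 higher at an unadjusted p under 0.05. Counts of list genes at that level, given below, are to be read beside these. Without replicate 4, Il5ra joined them for 3 of 8, but 17.1% of all genes were then past the threshold as higher and 12.7% as lower. With replicate 4 as the only reference, the same 2 beta chain genes were past it, beside 35 genes or 0.176% higher and 0% lower over all genes. The 2 anti-ICOS values exceeded every anti-CD3 value in 3 of 8 genes, against 8.51% of all genes, and were under every anti-CD3 value in 0 of 8, against 14.7% of all genes. Since this contrast was known when the family was picked, nothing is read from these counts. The call of Csf2rb was lost without any 1 of anti-CD3 replicates 1, 2 and 3, and that of Csf2rb2 was kept. Counts over all genes with 1 array left out are given below, and nothing is read from these calls either. The median difference was 0.072 over the 8 genes and -0.031 over all genes.

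Among themselves the 3 higher receptor genes followed one another over the 6 arrays, and the other genes gave weaker values of either sign. Pearson r was 0.979 between Csf2rb and Csf2rb2, 0.929 between Csf2rb and Il5ra and 0.885 between Csf2rb2 and Il5ra. These values describe 6 arrays that fall mainly into 2 groups, and each mostly restates the difference between the groups. Il3ra correlated with Csf2rb at 0.61, while Csf2ra ran against Il3ra at -0.65. With Csf2rb, the ligand genes gave 0.26 for Csf2, -0.36 for Il3 and 0.075 for Il5. Il3 and Csf2 are neighbours on chromosome 11, and their correlation was -0.57.

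The genes whose pattern over the 6 arrays was most like that of the beta chains were sought among 357 genes outside the family with an SD of at least 0.5, by Pearson r, and their values are given without a test because they were picked for this pattern. Nearest to Csf2rb were Pirb (r = 0.998), an inhibitory immunoglobulin-like receptor, Sirpa (0.996), the receptor for CD47, Mmp25 (0.994), a membrane-anchored metalloproteinase, Fscn1 (0.993), the actin-bundling protein fascin, and Adam8 (0.991), a membrane protease. Pirb read 8.39 and 8.60 with anti-ICOS and 7.35, 7.33, 7.34 and, in replicate 4, 7.68 with anti-CD3. Sirpa read 8.97 and 9.05 with anti-ICOS and 7.70, 7.65, 7.66 and, in replicate 4, 8.01 with anti-CD3. In both, as in Csf2rb, replicate 4 was the highest anti-CD3 array and lay below both anti-ICOS arrays. The differences of Mmp25, Fscn1 and Adam8 between the groups were 1.89, 2.49 and 1.44.

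Nearest to Csf2rb2 were Ccr9 (r = 0.998), the receptor for the gut chemokine CCL25, Adam8 (0.996), the potassium channel gene Kcnk6 (0.996), Zc3h12c (0.995), of a family of RNA-degrading zinc finger proteins, and Sirpa (0.992). Ccr9 read 8.35 and 8.35 with anti-ICOS and 7.11, 6.93, 6.84 and, in replicate 4, 7.07 with anti-CD3. Unlike for Csf2rb, replicate 4 lay within the range of its group here. The differences of Kcnk6 and Zc3h12c were 1.07 and 1.46. Il5ra was followed by genes in which replicate 4 lay well above replicates 1 to 3: Ccl3 (r = 0.993), a chemokine, Rpl12 (0.992), a ribosomal protein gene, and Marcks (0.992), a membrane-bound actin regulator. Ccl3 read 10.19 and 9.95 with anti-ICOS and 8.38, 8.54, 8.22 and, in replicate 4, 9.66 with anti-CD3. No other member varied enough over the arrays for this comparison.

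Of the machinery that carries the beta chain signal, 15 of 18 listed genes were measured. Beside 0.271% of all genes higher and 0% lower, 1 gene of the list rose past the threshold while none fell. That gene was Gab2, an adaptor that links the activated receptor to phosphatidylinositol 3-kinase. Gab2 read 7.71 and 7.75 with anti-ICOS and 7.02, 6.96, 7.16 and, in replicate 4, 7.14 with anti-CD3. It was higher on both anti-ICOS arrays, by 0.66 ± 0.084 (SE, limma adjusted p = 0.0449). Gab2 was no longer past the threshold without anti-CD3 replicates 1, 2 or 3 (adjusted p = 0.220, 0.188 and 0.106), without anti-ICOS replicates 1 or 2 (0.320 and 0.344), or with replicate 4 as the only reference (0.133). Stat5a, which encodes a transcription factor activated by the beta chain, read 10.47 and 10.23 with anti-ICOS and 9.92, 9.92, 9.88 and, in replicate 4, 9.97 with anti-CD3, a difference of 0.43 ± 0.086 (adjusted p = 0.189). Jak2, the kinase bound to the beta chain, differed by 0.25 ± 0.068 (adjusted p = 0.389). Neither passed the test. For each gene both anti-ICOS arrays lay above every anti-CD3 array, as in 8.51% of all genes. The median difference of the list was 0.095, against -0.031 over all genes. At an unadjusted p under 0.05, 5 of its genes were higher and 0 lower, where 1245 and 1109 of all 19937 genes were.

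Of 17 genes listed as induced by STAT5, 16 were measured, and in limma none was past the threshold in either direction on all 6 arrays, with 8 higher and 0 lower at an unadjusted p under 0.05. Their median difference was 0.35, against -0.031 over all 19937 genes, of which 1245 were higher and 1109 lower at that unadjusted p. Socs2, a feedback inhibitor of cytokine signalling, read 10.32 and 10.44 with anti-ICOS and 8.52, 8.58, 8.43 and, in replicate 4, 9.44 with anti-CD3, a difference of 1.64 ± 0.27 (adjusted p = 0.108). Cish, another such inhibitor, read 9.33 and 9.06 with anti-ICOS and 7.85, 7.86, 7.76 and, in replicate 4, 8.42 with anti-CD3, a difference of 1.23 ± 0.19 (adjusted p = 0.0884). For both genes replicate 4 lay between the anti-ICOS arrays and the rest of its group. Socs1, also of this inhibitor family, differed by 0.85 ± 0.17 (adjusted p = 0.185). Without replicate 4, 12 of the 16 were past the threshold as higher, beside the 17.1% of all genes named above, and with it as the only reference 1 was, Socs2, at a difference of 0.95 (adjusted p = 0.0136). The median difference was 0.070 with that reference, and replicate 4 itself lay a median of 0.32 above replicates 1 to 3. Many signals other than the beta chain, IL-2 among them, induce these genes.

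**Figure D3:**
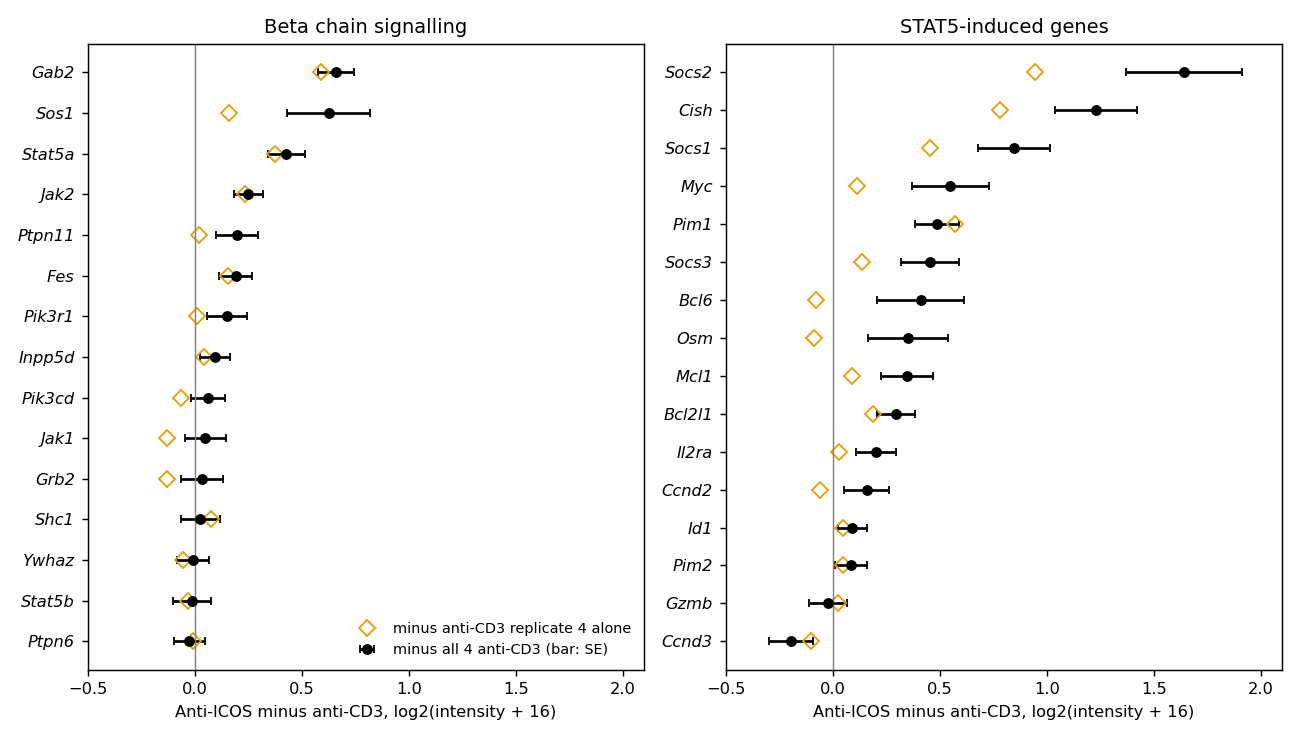
Difference of each measured gene of the beta chain signalling list (left panel) and the STAT5-induced list (right panel) on the log2(intensity + 16) scale, anti-CD3 plus anti-ICOS minus all 4 anti-CD3 arrays (black, bars for the SE) and minus replicate 4 alone (orange). Socs2, at 1.64 and 0.95, lies farthest right against either reference, and Gab2 keeps 0.59 of its 0.66 against replicate 4.

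Other receptors built on the same plan did not pass the test on all 6 arrays. Of 24 listed type I cytokine receptor genes 19 were measured, and limma called 0 higher and 0 lower, with 5 higher and 1 lower at an unadjusted p under 0.05. Il23r, a chain of the IL-23 receptor, read 6.67 and 6.88 with anti-ICOS and 5.97 ± 0.13 (SD, n = 4) with anti-CD3, where replicate 4 was the highest at 6.12, a difference of 0.80 ± 0.11 (adjusted p = 0.0514). Lifr, the receptor for leukaemia inhibitory factor, differed by 0.46 ± 0.079 and Il13ra1, a chain of the IL-13 receptor, by 0.31 ± 0.098 (adjusted p = 0.121 and 0.414). Without replicate 4, 8 of the 19 were past the threshold as higher and 3 as lower, beside 17.1% and 12.7% of all genes. Il23r, Lifr and Il13ra1 belonged to the dimmest 40% of genes. The list's median difference was 0.077. Over all 19937 genes, 1245 were higher and 1109 lower at an unadjusted p under 0.05.

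The other helper T cell cytokines behaved likewise: 17 of 18 were measured, limma called 0 in either direction, and 5 were higher and 0 lower at an unadjusted p under 0.05. Il10, an anti-inflammatory cytokine, read 7.32 and 7.01 with anti-ICOS and 5.77, 5.83, 5.71 and, in replicate 4, 6.38 with anti-CD3, a difference of 1.24 ± 0.20 (adjusted p = 0.0958). Ifng, which encodes interferon gamma, read 8.77 and 8.37 with anti-ICOS and 6.84, 7.05, 6.81 and, in replicate 4, 8.02 with anti-CD3, a difference of 1.39 ± 0.34 (adjusted p = 0.327). For both genes the anti-ICOS arrays lay above every anti-CD3 array, as in 8.51% of all genes. In each, replicate 4 was the anti-CD3 array nearest to the anti-ICOS arrays. Il6 read 5.61 and 5.14 with anti-ICOS and 4.86 to 4.97 with anti-CD3, a difference of 0.47 ± 0.13 (adjusted p = 0.388). That difference was 0.24 without anti-ICOS replicate 1 and 0.71 without anti-ICOS replicate 2. Il6 and Il10 belonged to the dimmest 40% of genes. With replicate 4 left out 7 of the 17 were past the threshold as higher and 1 as lower, where 17.1% and 12.7% of all genes were. The median difference over the list was 0.063. Of all 19937 genes, 1245 were higher and 1109 lower at an unadjusted p under 0.05.

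No listed gene around the 2 loci passed the test on all 6 arrays. On chromosome 15, 11 listed neighbours of Csf2rb and Csf2rb2 were measured, limma called 0 of them in either direction, and 0 were higher or lower at an unadjusted p under 0.05. Il2rb, the beta chain of the IL-2 receptor, is 6 protein-coding genes away and read 11.67 and 11.65 with anti-ICOS and 12.14, 12.13, 12.11 and, in replicate 4, 11.63 with anti-CD3. Its difference was -0.35 ± 0.15 (adjusted p = 0.423), and replicate 4 lay with the anti-ICOS arrays. Tst, which encodes a mitochondrial sulphur transferase, differed by -0.15 ± 0.086 and Kctd17 by -0.14 ± 0.079 (adjusted p = 0.436 and 0.438). Without replicate 4, 0 of the 11 were past the threshold as higher and 3 as lower, where 17.1% and 12.7% of all genes were. The median difference of these neighbours was -0.099, against -0.031 over all 19937 genes, of which 1245 were higher and 1109 lower at an unadjusted p under 0.05.

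On chromosome 11, Il3 and Csf2 are adjacent and Il5 lies 7 protein-coding genes from the nearer of them. All 12 listed neighbours were measured, limma called 0 in either direction, and 1 was higher and 1 lower at an unadjusted p under 0.05. Irf1, a transcription factor gene next to Il5, differed by 0.40 ± 0.14 and Acsl6, an acyl-CoA synthetase gene next to Il3, by -0.20 ± 0.074 (adjusted p = 0.417 for each). Il4, the T helper type 2 cytokine of the same cluster, read 6.95 and 6.19 with anti-ICOS and 6.18, 6.11, 6.33 and, in replicate 4, 6.07 with anti-CD3, a difference of 0.40 ± 0.20 (adjusted p = 0.423). The higher Il4 value rested on anti-ICOS replicate 1, and the groups overlapped. Il4 and Acsl6 belonged to the dimmest 40% of genes. Without replicate 4, 2 of the 12 were past the threshold as higher and 1 as lower, near the 17.1% and 12.7% of all genes. The median difference over these genes was 0.0038. Among all 19937 genes, 1245 were higher and 1109 lower at an unadjusted p under 0.05.

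Among 13 other myeloid growth factor and receptor genes, 12 were measured. Beside 0.271% of all genes higher and 0% lower, 1 of the 12 rose past the threshold while none fell. This was Flt3, the receptor for FLT3 ligand on progenitors and dendritic cells. Flt3 read 8.05 and 8.26 with anti-ICOS and 6.86, 6.86, 6.89 and, in replicate 4, 6.997 with anti-CD3. Both anti-ICOS arrays were clearly above the whole anti-CD3 group, by 1.26 ± 0.087 (SE, limma adjusted p = 0.00321), and by 1.16 against replicate 4 alone (adjusted p = 0.00547). Kit, the receptor for stem cell factor, read 7.52 and 7.88 with anti-ICOS and 6.70, 6.79, 6.73 and, in replicate 4, 6.99 with anti-CD3, a difference of 0.90 ± 0.13 (adjusted p = 0.0574). Csf1, which encodes the macrophage growth factor M-CSF, differed by 0.38 ± 0.076 (adjusted p = 0.188). Without replicate 4, 5 of the 12 were past the threshold as higher and 1 as lower, where 17.1% and 12.7% of all genes were. The median difference on all 6 arrays was 0.049, against -0.031 over all genes.

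The receptors of this family are expressed by several cell types that can accompany splenic T cells, and lists of their markers were read on the same arrays. In bulk samples like these, fewer cells of a type and less RNA per cell cannot be told apart. The mean of 13 dendritic cell markers, of 13 listed, was 7.67 and 7.80 with anti-ICOS, 7.01 to 7.04 in anti-CD3 replicates 1 to 3 and 7.17 in replicate 4. Flt3 and Sirpa were the 2 of these 13 past the threshold as higher and none was lower, beside 0.271% and 0% of all genes. At an unadjusted p under 0.05, 8 were higher and 1 lower, where 1245 and 1109 of all 19937 genes were. Sirpa is also among the genes picked above for their likeness to Csf2rb, so its place in these counts supports nothing. The count of markers past the threshold as higher was 1 without anti-CD3 replicate 1, 2 or 3 or anti-ICOS replicate 1, and 8 without anti-CD3 replicate 4, where 17.1% of all genes were past it as higher. Itgax, which encodes CD11c, read 8.07 and 7.94 with anti-ICOS and 6.91, 6.78, 7.10 and, in replicate 4, 7.74 with anti-CD3. The dendritic cell list thus was higher with anti-ICOS on both arrays, and its part in the values of Csf2rb2, Csf2rb and Il5ra was not tested.

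Other lists of innate cells also had higher means on the anti-ICOS arrays, with 0 genes past the threshold in limma on all 6 arrays in any of them. Without anti-CD3 replicate 4, 5 of 12 monocyte and macrophage, 4 of 14 neutrophil and 8 of 11 natural killer cell markers were past it as higher and 0 as lower, where 17.1% and 12.7% of all genes were. The 12 measured of 14 monocyte and macrophage markers averaged 6.85 and 7.08 with anti-ICOS, 6.47 to 6.61 in anti-CD3 replicates 1 to 3 and 6.77 in replicate 4. At an unadjusted p under 0.05, 6 were higher and 0 lower, where 1245 and 1109 of all 19937 genes were. Lyz2, the lysozyme of myeloid cells, read 8.47 and 9.67 with anti-ICOS and 6.71, 6.70, 6.77 and, in replicate 4, 8.53 with anti-CD3. Csf1r, the M-CSF receptor, read 6.70 and 6.85 with anti-ICOS and 6.19 to 6.47 with anti-CD3. The 14 neutrophil markers averaged 6.36 and 6.81 with anti-ICOS and 6.13 to 6.28 with anti-CD3, with 6 higher and 0 lower at that level. Among them S100a8 read 5.86 and 6.24 with anti-ICOS and 5.43 to 5.69 with anti-CD3, and Csf3r, the G-CSF receptor, 6.23 on both anti-ICOS arrays and 5.95 to 6.15 with anti-CD3. The 11 measured of 12 natural killer cell markers averaged 7.15 and 7.21 with anti-ICOS, 6.66 to 6.71 in replicates 1 to 3 and 6.97 in replicate 4, with 4 higher and 0 lower. Ncr1, a natural killer cell receptor, read 6.34 and 6.54 with anti-ICOS and 5.60 to 5.86 with anti-CD3, a difference with adjusted p = 0.0514. Csf1r, S100a8, Csf3r and Ncr1 belonged to the dimmest 40% of genes. Only 5 of the 12 monocyte and macrophage, 4 of the 14 neutrophil and 5 of the 11 natural killer cell markers did not. The part of these lists in the receptor values was not tested either.

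The cells best known for answering IL-3 and IL-5 gave mixed readings. The 13 mast cell and basophil markers averaged 6.28 and 6.47 with anti-ICOS and 6.01 to 6.17 with anti-CD3, with 0 past the threshold in limma. At an unadjusted p under 0.05, 5 were higher and 0 lower, where 1245 and 1109 of all 19937 genes were. Fcer1a, a chain of the high-affinity IgE receptor of mast cells and basophils, read 5.31 and 5.24 with anti-ICOS and 5.22 to 5.33 with anti-CD3, so that the groups overlapped. Fcer1a belonged to the dimmest 40% of genes, where a modest change would be hard to see, as did all but 4 of the 13 markers. Kit, which mast cells also carry and which is described above, was higher on both anti-ICOS arrays by 0.90 (adjusted p = 0.0574). Of the 13 markers, 7 read above every anti-CD3 array on both anti-ICOS arrays and 0 below, against 8.51% and 14.7% of all genes. Without replicate 4, 4 were past the threshold as higher and 1 as lower, where 17.1% and 12.7% of all genes were. The 7 measured of 10 eosinophil markers averaged 6.41 and 6.45 with anti-ICOS and 6.31 to 6.58 with anti-CD3, with 0 past the threshold. At an unadjusted p under 0.05, 1 of them was higher and 0 lower. With replicate 4 left out, 0 eosinophil markers were past the threshold as higher and 2 as lower, beside the same 17.1% and 12.7% of all genes. Epx, eosinophil peroxidase, also among the dimmest 40% of genes, read 5.88 and 5.81 with anti-ICOS and 5.73 to 6.005 with anti-CD3. Siglecf, an eosinophil lectin, read 6.64 and 6.71 with anti-ICOS, 7.01 to 7.16 in anti-CD3 replicates 1 to 3 and 6.56 in replicate 4.

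No lymphoid marker was past the threshold on all 6 arrays, and the T cell list was lower on average with anti-ICOS. The 12 measured of 14 T cell markers averaged 11.44 and 11.49 with anti-ICOS, 11.58 to 11.67 in anti-CD3 replicates 1 to 3 and 11.52 in replicate 4, with 0 past the threshold in limma. At an unadjusted p under 0.05, 0 were higher and 3 lower, where 1245 and 1109 of all 19937 genes were. Of these 12, 6 read below every anti-CD3 array on both anti-ICOS arrays and 0 above, against 14.7% and 8.51% of all genes. Without replicate 4, 5 T cell markers were past the threshold as lower and 0 as higher, and 4 B cell markers as higher and 1 as lower, where 12.7% of all genes were lower and 17.1% higher. The 11 measured of 12 B cell markers averaged 10.09 and 10.24 with anti-ICOS, 9.99 to 10.14 in anti-CD3 replicates 1 to 3 and 10.25 in replicate 4. On all 6 arrays 0 of them were past the threshold, with 0 higher and 1 lower at that unadjusted p. The B cell genes Cd79a and Ms4a1 were named after their values were seen. Cd79a read 12.10 and 12.25 with anti-ICOS, 12.18 to 12.35 in anti-CD3 replicates 1 to 3 and 12.23 in replicate 4. Ms4a1 read 11.67 and 11.80 with anti-ICOS, 11.36 to 11.52 in replicates 1 to 3 and 11.81 in replicate 4. In cells labelled as purified CD4+ T cells, B cell transcripts were thus bright on all 6 arrays. For Ms4a1 replicates 1 to 3 lay below both anti-ICOS arrays and replicate 4 lay with them. The 6 CD8 T cell markers averaged 10.04 and 10.09 with anti-ICOS, 9.81 to 9.92 in anti-CD3 replicates 1 to 3 and 10.06 in replicate 4. Of them, 1 was higher and 0 lower at that unadjusted p. The 3 measured of 8 erythroid markers averaged 6.51 and 6.52 with anti-ICOS, 6.54 to 6.65 in anti-CD3 replicates 1 to 3 and 6.38 in replicate 4. Of them, 0 were higher and 0 lower. No gene of either list was past the threshold on all 6 arrays. Without replicate 4, 2 CD8 T cell markers were past it as higher and 1 erythroid marker as lower, beside 17.1% and 12.7% of all genes.

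**Figure D4:**
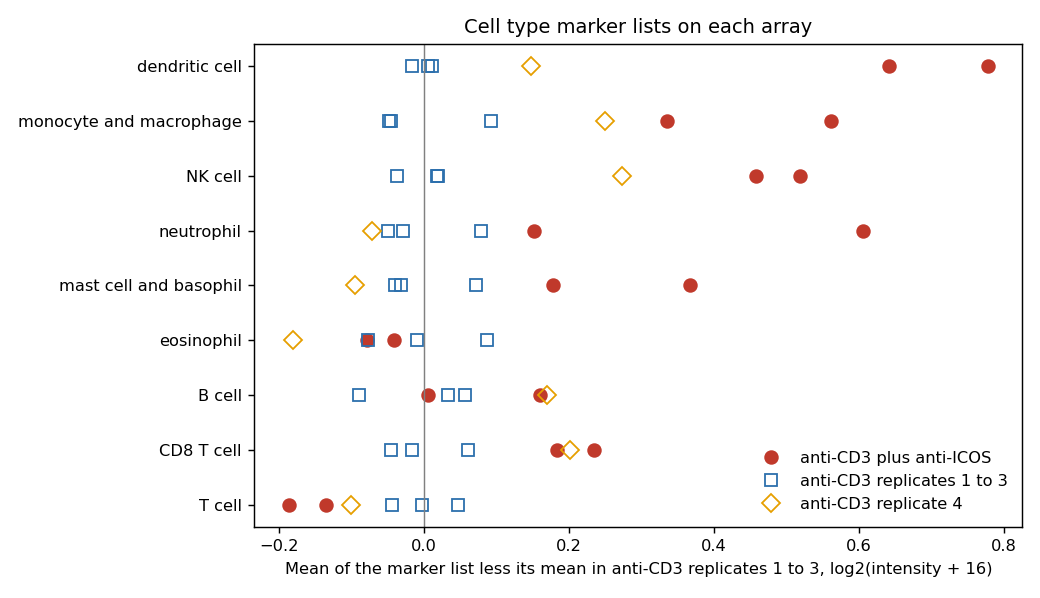
Mean log2(intensity + 16) of each marker list except the erythroid one on each array, less that list's mean in anti-CD3 replicates 1 to 3. Arrays are anti-CD3 plus anti-ICOS (red), anti-CD3 replicates 1 to 3 (blue squares) and replicate 4 (orange). Both anti-ICOS arrays lie right of all anti-CD3 arrays for the dendritic cell, monocyte and macrophage, natural killer cell, neutrophil, and mast cell and basophil lists, and left of them for the T cell list.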

How the data were processed

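Total RNA (1 ug per culture, per the labels' protocols) was biotin-labelled and read on 1-colour arrays, 1 per culture. The authors deposited linear intensities, 1 value per probe set and array, from 7.23 to 22176. Per the submitters' processing notes MAS5 was used, and no other tool is named. How arrays were normalized, probes summarised and annotated is not given in the sources used here. If levels were equalised between arrays, a general shift of expression would be hidden.

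Of 34760 probe sets, 21640 had 1 gene symbol in the platform annotation, 1321 had several and 11799 were unnamed here. The brightest probe set by mean log2 value stood for each of 954 genes with several, which left 19937 genes. Values were log2(intensity + 16), with no filter. Groups and replicate numbers came from the sample titles. Differences were fitted by limma 3.58.1 under R 4.3.3, with moderated tests (eBayes) on 4 residual degrees of freedom. P-values are two-sided with Benjamini-Hochberg adjustment over all 19937 genes and a threshold of 0.05. Replicate 4 was set apart in a fit with 3 coefficients. An exact permutation test of 1 gene cannot go below p = 0.133 with 2 and 4 arrays, and the number of arrays limits the precision.

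The members, gene lists and cell type markers were chosen with earlier results of these data known, so no p is given for a member or for a list. The genes named are the members, the 5 genes most like each beta chain and the 3 most like Il5ra by Pearson r, from each pathway list those past the threshold and the 3 of smallest p, and markers fixed by name, of which 1 is not reported here. Promoters were taken from RefSeq on GRCm38.p6, where 7 of the 8 members, all but Csf2rb, matched by symbol. Gene order came from RefSeq. The steps were tested on simulated data. Alternatives were quantile normalization, centring on array medians, leaving out the dimmest 40% of genes, offsets of 1 and 64, array quality weights, a robust prior with a trend, averaging or testing apart all probe sets of a gene, a replicate block, a threshold of 0.1, replicate 4 as the only reference, and leaving out each array. Python 3.11.15 with matplotlib 3.10.9 drew the figures.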

Additional observations from a re-analysis of the deposited data

Results flagged for a closer look

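Dixon's ratio, the gap between an extreme array and its nearest neighbour divided by the range of the group, was computed within the 4 anti-CD3 arrays, and chance alone takes about 1 in 20 groups past its limit. Of 70 values checked, 9 went past it, in each case with anti-CD3 replicate 4 as the extreme array. The checked values are not a neutral sample: Pirb and Sirpa were picked for their likeness to Csf2rb, in which replicate 4 is itself far out, and Adgre1 and Ccl22 were named after their values were seen, so their number is not to be set against the share of all genes. Over all genes 1732 (8.7%) went past it, and in 6.0% of all genes that array was replicate 4. Among the genes nearest to the beta chains these were Pirb at 7.68 and Sirpa at 8.01. Among the STAT5-induced genes they were Cish at 8.42 and Socs2 at 9.44, and among the neighbours of the beta chain genes Il2rb at 11.63. Among the myeloid markers they were Lyz2 at 8.53, Adgre1 at 8.10 and Ccl22 at 8.59, and the mean of the dendritic cell list at 7.17. In all 9, replicate 4 was displaced in the direction of the anti-ICOS values. Csf2rb, with a gap of 0.816 of the range, came just under the limit.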

How the results depend on the processing

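The differences of Csf2rb2, Csf2rb and Il5ra stayed positive under all 17 alternatives, at 2.07 to 2.57, 1.58 to 2.30 and 0.35 to 1.24. Those of Csf2ra (-0.053 to 0.17), Il3ra (-0.047 to 0.20), Csf2 (-0.21 to 0.19), Il3 (-0.12 to 0.065) and Il5 (-0.015 to 0.076) changed sign in at least 1, and the cause was not tested. The count of 54 genes past the threshold was 28 with an offset of 64, 9413 with array quality weights, 6551 with a replicate block (which also takes anti-CD3 replicates 3 and 4, having no partner, out of the contrast), 85 at an adjusted p of 0.1 and 35 with replicate 4 as the only reference, and with 1 array left out it ran from 16 to 5930, the highest without anti-CD3 replicate 4. Members past the threshold numbered 1 to 3 with 1 array left out. The labels do not say whether replicate numbers pair the arrays. Deviations of same-numbered arrays from their group means correlated at -0.039 and 0.10. These values cannot decide it, since the deviations of the 2 anti-ICOS arrays mirror each other. With the replicate block 3 members were past the threshold, as with array weights, which were 0.15 for replicate 4 and 4.53, 1.07 and 0.38 for replicates 1 to 3. Of 548 values for 33 named genes outside the family, 442 kept their direction and side of the threshold, 12 were no longer past it, 84 newly passed it and 10 changed sign. With replicate 4 as the only reference, Epx was at 0.12, Il2rb at 0.024 and Siglecf at 0.11. Fcer1a, whose difference was near 0, was at 0.011 with quantile normalization, 0.044 with weights, 0.029 with the block and -0.035 to 0.034 with 1 array left out. The call of Gab2 was also lost with an offset of 64 (adjusted p = 0.0624). The 3 cytokine genes have no value without the dimmest 40% of genes.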

Other observations

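The genes below were chosen after their values were seen, and are given without a test. The granule genes Mpo, Elane and Ngp of immature neutrophils differed between the 2 anti-ICOS arrays themselves. Mpo read 7.27 and 9.12 with anti-ICOS and 6.39 to 6.73 with anti-CD3. Elane read 7.17 and 8.60 with anti-ICOS and 6.75 to 6.84 with anti-CD3, and Ngp 6.19 and 7.82 with anti-ICOS and 5.65 to 5.99 with anti-CD3. In each, anti-ICOS replicate 2 was the higher array by more than 1 unit. Ngp belonged to the dimmest 40% of genes. Among the receptor genes, Csf2rb read 9.85 in anti-ICOS replicate 1 and 10.12 in replicate 2, Il5ra 8.44 and 8.48, and Csf2rb2 9.51 and 9.43. Any link between these receptor genes and the granule genes was not tested. Tyrobp, an adaptor of natural killer and myeloid cells, read 8.87 and 8.99 with anti-ICOS and 7.43, 7.56, 7.43 and, in replicate 4, 8.15 with anti-CD3. Ccl22, a dendritic cell chemokine, read 10.04 and 9.70 with anti-ICOS and 7.58, 7.60, 7.51 and, in replicate 4, 8.59 with anti-CD3. Adgre1, a macrophage marker, read 7.77 and 8.29 with anti-ICOS and 6.21, 6.18, 6.27 and, in replicate 4, 8.10 with anti-CD3, so for this gene replicate 4 lay between the 2 anti-ICOS arrays.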
